A study of Mus musculus with 15 samples.

Results

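The enzymes described here build and crosslink collagen: the lysyl oxidases Lox, Loxl1, Loxl2, Loxl3 and Loxl4, the prolyl 4-hydroxylase alpha subunits P4ha1, P4ha2 and P4ha3, and the lysyl hydroxylases Plod1 and Plod2. The rule lists these 10 genes by name, with no threshold on a measured value, and they were looked up among probe sets with exactly 1 gene symbol. Of the 10 genes, 9 were measured, each by 1 probe set, among 22180 genes in all. Loxl2 was not, because both probe sets that name it also name the predicted gene Gm21451; these are described separately below.

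Collagen chains are modified inside the cell and crosslinked outside it. Prolyl 4-hydroxylase, a tetramer of alpha subunits and of P4hb (protein disulphide isomerase), hydroxylates prolines so that the triple helix is stable at body temperature. The alpha subunit carries the active site. Lysyl hydroxylases modify lysines that later take part in crosslinks; Plod1 acts mainly on the helix and Plod2 on the telopeptides at the chain ends. Lysyl oxidases are secreted copper enzymes that oxidise lysine in collagen and elastin, which starts crosslinking. In arteries these crosslinks give the wall its tensile strength and elastic recoil.

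RNA came from carotid arteries of female C57Bl/6J mice aged 21 to 22 weeks, taken 5 days after the left common carotid artery was tied. The 4 groups were wildtype non-ligated (arrays 1 to 4), wildtype ligated (arrays 1 to 4), Has3-deficient non-ligated (arrays 1 to 4) and Has3-deficient ligated (arrays 3, 5 and 6). Has3 is a synthase of hyaluronan, a matrix polysaccharide. The study asked how loss of Has3 changes the artery during neointimal hyperplasia, the thickening of the inner wall that follows ligation. How the gene was deleted and in which cells, whether the unligated vessels came from the same animals, and whether the samples of a group came from separate animals are not given in the labels, so the p-values here reflect only how far these samples spread. The arteries had been cleared of adhering wound tissue in storage solution, and 100 ng of RNA was amplified per array.

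All values are log2 values, with base 2 read from the values since the files do not name it. Each probe set had been centred on its median of the 15 arrays, so 1 array of each probe set stands at 0 and no level can be set against another gene's. For the same reason the presence of smooth muscle or other cell types could not be read from absolute levels. Differences are given in log2 units ± standard error (SE) from a limma model with 4 group means, and a gene passed where its adjusted p was below 0.05 by the Benjamini-Hochberg method, over the 22180 genes. Array medians lay between -0.0014 and 0.0167. The Has3 probe set differed between genotypes by 0.09 ± 0.14 without ligation and by -0.20 ± 0.16 with it, neither passing, so it gives no check of the genotype labels. The number of arrays limits the precision throughout.

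Some arrays stood apart in genes of other tissues. The mean of 8 neuronal markers (Th, Dbh, Snap25, Syt1, Stmn2, Uchl1, Prph and Nefl) was 2.92 in wildtype non-ligated array 2, and 1.10, 4.86 and 2.07 in Has3-deficient non-ligated arrays 1, 3 and 4, against -0.31 to 0.60 in the other 11 arrays. Has3-deficient non-ligated array 3 was also the lowest of its group for 7 of the 9 measured enzymes and the highest for P4ha3. The mean of 8 fat markers (such as Adipoq and Plin1) was 1.64 in wildtype non-ligated array 1 and 1.81 in Has3-deficient non-ligated array 4, where 8 skeletal muscle markers also had their highest mean, 0.95. The lowest fat means, -1.36 and -1.21, were those of wildtype ligated arrays 1 and 2, and 3 of the 8 fat markers passed as lower after ligation in wildtype arteries and none in Has3-deficient arteries. The part of these tissues in the values of the enzymes was not tested. Each array was left out in turn, and the array highest in neuronal markers of each genotype also together.

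Ligation raised the RNA of most of these enzymes in wildtype arteries. Of the 9, 7 passed as higher and none as lower, against 13.2% of all genes higher and 14.6% lower; the median difference was 0.67 for the 9 and 0.01 for all genes. In Has3-deficient arteries 5 of 9 passed as higher and none as lower, against 10.2% and 8.08% of all genes, with a median of 0.66 against -0.03. Lox, P4ha1, P4ha3, Plod1 and Plod2 passed in both genotypes, and for each of them every one of the 7 ligated arrays lay above all 8 non-ligated arrays. The share of all genes that did so across both genotypes was not counted. Within a genotype, 14.0% of all genes in wildtype and 13.0% in Has3-deficient arteries were higher without overlap. Loxl1 and Loxl4 passed in neither. In whole tissue, a change in the number of cells that make an RNA and a change in RNA per cell cannot be told apart.

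**Figure D1:**
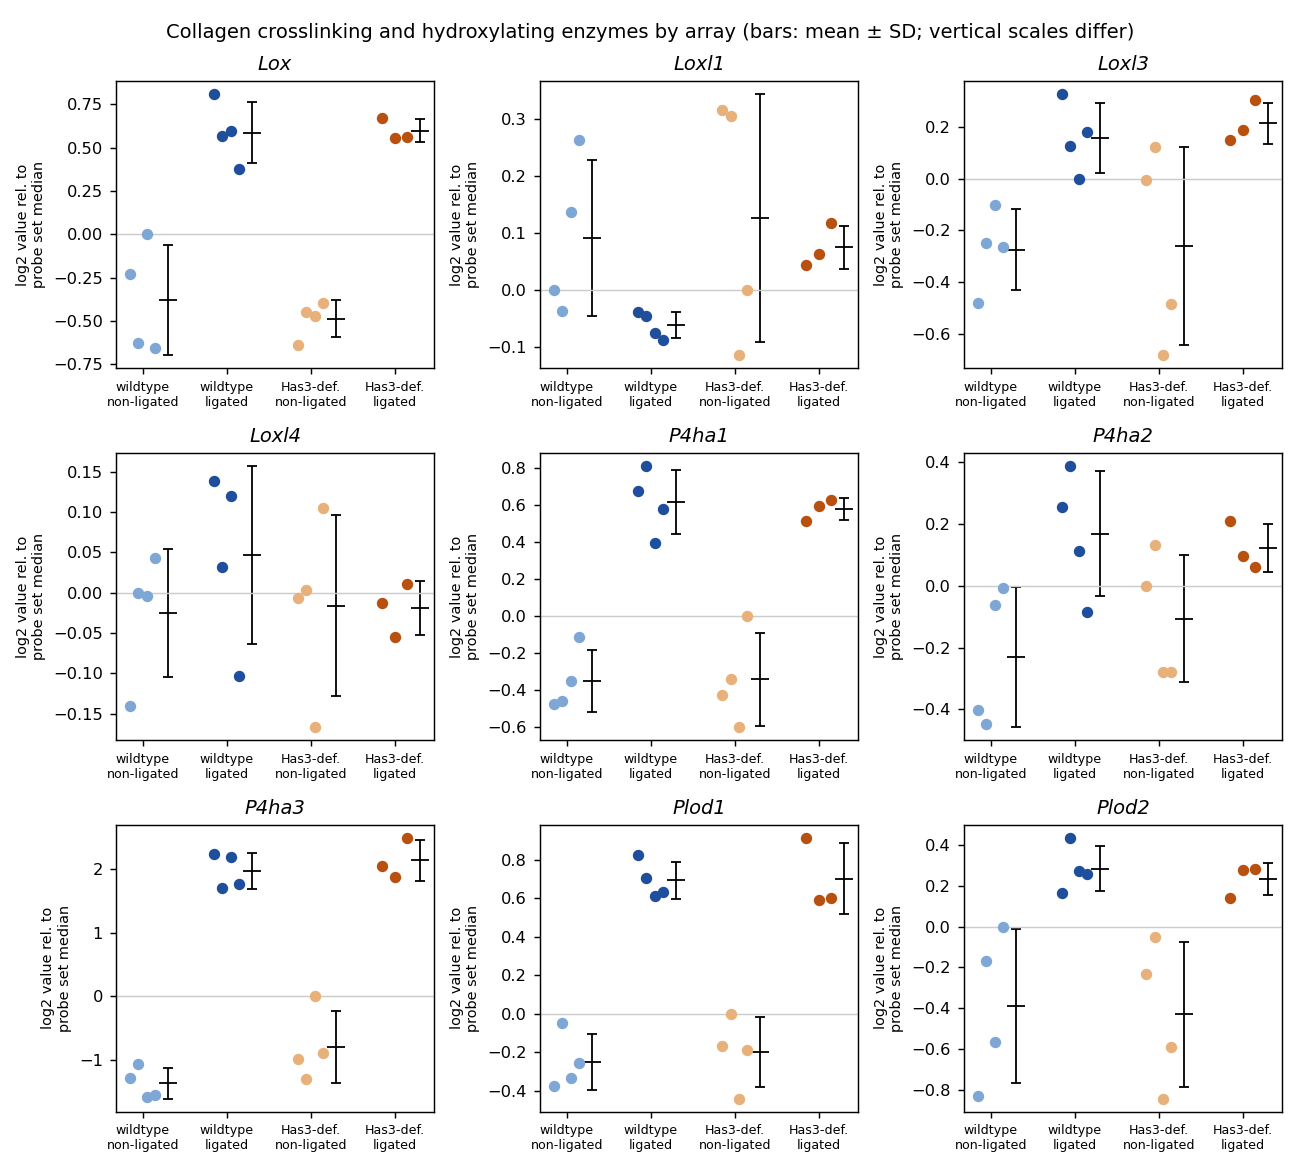
Log2 value of each measured enzyme in each of the 15 arrays, relative to that enzyme's median array; points are single arrays in the 4 groups, black bars are mean ± SD (n = 4, or 3 for Has3-deficient ligated) and vertical scales differ between panels. P4ha3 spans the widest range, from -1.58 to 2.50, while the arrays of Loxl1 and Loxl4 lie between -0.17 and 0.31.

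The prolyl 4-hydroxylase subunits differed in how far they rose. P4ha3, an alpha subunit that assembles with P4hb like the others, stood at -1.28, -1.06, -1.58 and -1.54 in wildtype non-ligated arrays 1 to 4 and at 2.23, 1.70, 2.19 and 1.76 in wildtype ligated arrays 1 to 4. Its values were -0.98, -1.30, 0.00 and -0.89 in Has3-deficient non-ligated arrays 1 to 4 and 2.04, 1.87 and 2.50 in the ligated ones. The ligated arrays of both genotypes were thus far above every non-ligated array, with a gap of 1.70 log2 units. The rise was 3.34 ± 0.24 in wildtype arteries, or 10.1-fold (95% confidence interval 7.07 to 14.5), with a limma adjusted p of 1.9e-07. It was 2.93 ± 0.26 in Has3-deficient arteries, or 7.63-fold (5.18 to 11.2), with a limma adjusted p of 1.84e-06. Leaving out Has3-deficient non-ligated array 3, at 0.00, gave 3.20. Quantile normalization gave lower values, 2.73 in wildtype and 2.51 in Has3-deficient arteries. P4ha3 was 1 of 9 enzymes that rose more than 2-fold in wildtype arteries with all arrays, as did 3.65% of all genes; in Has3-deficient arteries P4ha3 and Lox did, against 3.38%. These counts depend on single arrays, since several other enzymes lay just under 2-fold. In wildtype arteries Lox was above it without non-ligated array 1 or 3 or ligated array 4 (up to 1.09), P4ha1 without non-ligated array 4 or ligated array 3 (up to 1.04) and Plod1 without non-ligated array 2 (1.02). P4ha1 was above it in Has3-deficient arteries without non-ligated array 4 (1.03).

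P4ha1, the alpha subunit made in most tissues, also rose in both genotypes. Its values were -0.47, -0.46, -0.35 and -0.11 in wildtype non-ligated arrays and 0.67, 0.81, 0.39 and 0.58 in wildtype ligated arrays. In Has3-deficient arteries they were -0.43, -0.34, -0.60 and 0.00 without ligation and 0.51, 0.59 and 0.62 with it. No ligated array reached down to a non-ligated one. The difference was 0.96 ± 0.12 in wildtype arteries (1.95-fold, limma adjusted p = 3.58e-05) and 0.92 ± 0.13 in Has3-deficient arteries (1.89-fold, limma adjusted p = 0.000188).

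P4ha2, the alpha subunit best known from cartilage and other skeletal tissue, moved less. It stood at -0.40, -0.45, -0.06 and -0.01 in wildtype non-ligated arrays and at 0.26, 0.39, 0.11 and -0.08 in wildtype ligated arrays. Has3-deficient arrays gave 0.00, 0.13, -0.28 and -0.28 without ligation and 0.21, 0.09 and 0.06 with it. The groups overlapped in both genotypes, since wildtype ligated array 4 fell among the non-ligated ones and Has3-deficient non-ligated array 2 among the ligated ones. The wildtype difference of 0.40 ± 0.13 passed narrowly (1.32-fold, limma adjusted p = 0.0313). It no longer passed without wildtype non-ligated array 1 or 2 (0.34 and 0.33), without wildtype ligated array 1 or 2 (0.37 and 0.32), or with only the groups compared in the fit (limma adjusted p = 0.0522). In Has3-deficient arteries the difference was 0.23 ± 0.14, with a 95% interval of -0.07 to 0.52 (limma adjusted p = 0.311).

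The sequences just upstream of these subunit genes were chosen for display after the 3 paralogues were seen to rise by different amounts. Whether the sequences bear on those amounts was not tested. Each is the 250 bases before the annotated start, 5′ to 3′ on the gene's strand, from RefSeq on build GRCm38.p6, which may not be the build behind the array annotation. Capitals mark ACGTG or GCGTG on either strand, the core to which hypoxia-inducible factors bind. The windows are chr10:59323046-59323295 (plus strand) for P4ha1, chr11:54100674-54100923 (plus strand) for P4ha2 and chr7:100285270-100285519 (plus strand) for P4ha3.
P4ha1: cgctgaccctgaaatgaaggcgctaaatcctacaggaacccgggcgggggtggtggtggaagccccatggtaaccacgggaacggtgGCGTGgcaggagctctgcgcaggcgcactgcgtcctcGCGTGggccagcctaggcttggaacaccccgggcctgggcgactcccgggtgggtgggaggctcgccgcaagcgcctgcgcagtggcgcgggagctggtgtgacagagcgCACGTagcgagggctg
P4ha2: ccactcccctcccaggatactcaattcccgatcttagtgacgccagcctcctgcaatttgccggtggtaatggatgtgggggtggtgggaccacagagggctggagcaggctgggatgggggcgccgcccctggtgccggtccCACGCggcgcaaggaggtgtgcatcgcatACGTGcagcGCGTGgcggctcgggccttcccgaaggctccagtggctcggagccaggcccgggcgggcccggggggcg
P4ha3: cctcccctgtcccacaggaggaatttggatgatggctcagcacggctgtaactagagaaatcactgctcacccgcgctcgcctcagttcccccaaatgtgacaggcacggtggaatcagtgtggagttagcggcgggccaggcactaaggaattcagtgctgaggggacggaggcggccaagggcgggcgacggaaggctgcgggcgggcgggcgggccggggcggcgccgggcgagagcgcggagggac
The P4ha1 window held 3 matches, 2 of GCGTG and 1 of ACGTG, and the P4ha2 window likewise held 3. These letters were not found in the P4ha3 window. Of the 5 enzymes whose windows in the promoter table were searched, Plod1 and Loxl4 had 1 match each, both of GCGTG. The search skipped any enzyme window on 1 chromosome, which the count over all windows kept. Of 32851 windows of the same length in the table, 38.6% held at least 1 of these cores, 16.6% ACGTG and 28.2% GCGTG, so a match is common and describes only the letters. The AP-1 motif TGANTCA was found in none of the 5 windows and in 6.75% of all.

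Both lysyl hydroxylases measured rose in both genotypes. Plod1 stood at -0.37, -0.05, -0.33 and -0.25 in wildtype non-ligated arrays and at 0.83, 0.71, 0.61 and 0.64 in wildtype ligated arrays. Has3-deficient arrays stood at -0.17, 0.00, -0.44 and -0.19 without ligation and at 0.92, 0.59 and 0.60 with it. The lowest ligated array, at 0.59, was well above the highest non-ligated one. The rise was 0.95 ± 0.10 in wildtype arteries (1.93-fold, limma adjusted p = 9.75e-06) and 0.90 ± 0.11 in Has3-deficient arteries (1.87-fold, limma adjusted p = 5.04e-05).

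Plod2, whose telopeptide hydroxylation directs collagen to more stable crosslinks, varied more among non-ligated arrays. Its values were -0.83, -0.17, -0.56 and 0.00 in wildtype non-ligated arrays and 0.17, 0.43, 0.27 and 0.26 in wildtype ligated arrays. In Has3-deficient arteries they were -0.23, -0.05, -0.84 and -0.59 without ligation and 0.14, 0.28 and 0.28 with it. Ligated arrays were close together and above all non-ligated ones, which were spread widely in both genotypes. The difference was 0.67 ± 0.18 in wildtype arteries (1.59-fold, limma adjusted p = 0.0113) and 0.66 ± 0.19 in Has3-deficient arteries (1.58-fold, limma adjusted p = 0.0287). The Has3-deficient difference did not pass without non-ligated array 3 or 4 (0.52 and 0.61) or without ligated array 3, 5 or 6 (0.71, 0.64 and 0.64). Nor did it pass with only the groups compared in the fit (limma adjusted p = 0.0541).

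Among the lysyl oxidases the response was uneven. Lox, the founding member of the family, which acts on collagen and elastin, stood at -0.23, -0.63, 0.00 and -0.66 in wildtype non-ligated arrays and at 0.81, 0.57, 0.60 and 0.38 in wildtype ligated arrays. Has3-deficient arrays gave -0.64, -0.45, -0.47 and -0.39 without ligation and 0.67, 0.56 and 0.56 with it. Ligated and non-ligated arrays did not overlap in either genotype. The rise was 0.97 ± 0.13 in wildtype arteries (1.95-fold, limma adjusted p = 6.85e-05) and 1.09 ± 0.14 in Has3-deficient arteries (2.12-fold, limma adjusted p = 8.28e-05).

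Loxl3, a member of the subfamily with scavenger receptor domains, stood at -0.48, -0.25, -0.10 and -0.27 in wildtype non-ligated arrays and at 0.33, 0.13, 0.00 and 0.18 in wildtype ligated arrays. Its Has3-deficient values were -0.00, 0.12, -0.68 and -0.48 without ligation and 0.15, 0.19 and 0.31 with it. The groups were apart within each genotype, though by little. The difference was 0.43 ± 0.15 in wildtype arteries (1.35-fold, limma adjusted p = 0.0447) and 0.48 ± 0.16 in Has3-deficient arteries (1.39-fold, limma adjusted p = 0.0572), so the larger estimate was the one that did not pass. Both lay at the threshold. The wildtype call was lost without wildtype non-ligated array 1, 2 or 4 (0.36, 0.44 and 0.44), without wildtype ligated array 1, 2 or 4 (0.38, 0.45 and 0.43) and without any of Has3-deficient ligated arrays 3, 5 and 6 (0.43 each), as it was after quantile normalization (limma adjusted p = 0.0507). The Has3-deficient difference passed without non-ligated array 1 or 2 (0.56 and 0.61) and after quantile normalization (0.57, limma adjusted p = 0.0279).

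Loxl1, which is tied to elastic fibres, and Loxl4 did not pass in either genotype. Loxl1 lay between -0.04 and 0.26 in wildtype non-ligated arrays and between -0.09 and -0.04 in wildtype ligated arrays. Every wildtype ligated array was below every non-ligated one, but by a margin far smaller than the spread of the non-ligated arrays; the difference was -0.15 ± 0.09 (95% interval -0.35 to 0.05, limma adjusted p = 0.275). In Has3-deficient arteries Loxl1 differed by -0.05 ± 0.10 (limma adjusted p = 0.802). Loxl4 differed by 0.07 ± 0.07 and by -0.00 ± 0.07, and its 15 arrays lay between -0.17 and 0.14. Counted by arrays that do not overlap, 6 of 9 enzymes were higher after ligation in wildtype arteries (14.0% of all genes) and 1, Loxl1, was lower (16.0%). In Has3-deficient arteries 6 of 9 were higher without overlap (13.0%).

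Both probe sets named for Loxl2 and Gm21451 were higher after ligation, and neither can be assigned to Loxl2, an oxidase known for crosslinking type IV collagen of basement membranes. The first stood at 0.00, -0.33, -0.11 and -0.00 in wildtype non-ligated arrays and at 1.88, 1.82, 1.88 and 1.89 in wildtype ligated arrays. It stood at -0.43, -0.31, -0.52 and -0.40 in Has3-deficient non-ligated arrays and at 1.54, 1.53 and 1.66 in the ligated ones. Replicates were close, and the Has3-deficient ligated arrays were all below the wildtype ligated ones, as was the case for 3.35% of all genes. In a fit of all 33793 probe sets, ligation raised it by 1.98 ± 0.07 in wildtype arteries (3.93-fold, limma adjusted p = 2.31e-09) and by 1.99 ± 0.08 in Has3-deficient arteries (3.98-fold, limma adjusted p = 4.35e-09). The genotype difference was -0.29 ± 0.08 with ligation and -0.31 ± 0.07 without it (limma adjusted p = 0.0946), and neither passed. For the second probe set the ligation differences were 1.35 ± 0.12 and 1.30 ± 0.13 (2.55-fold and 2.47-fold), and the genotype differences were -0.08 ± 0.13 with ligation and -0.03 ± 0.12 without it. The 95% intervals of the probe sets overlapped in both genotype comparisons but in neither ligation comparison. For ligation they were 1.83 to 2.13 and 1.09 to 1.62 in wildtype arteries, and 1.83 to 2.16 and 1.02 to 1.59 in Has3-deficient arteries. The difference between the probe sets was not tested.

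**Figure D2:**
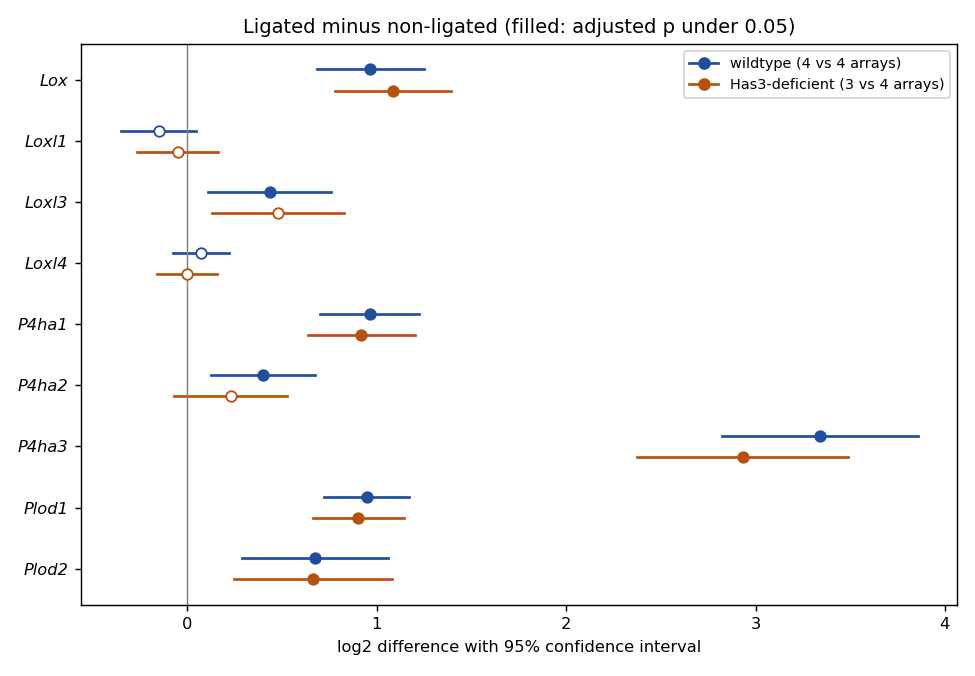
Log2 difference between ligated and non-ligated arteries for the 9 measured enzymes, with 95% confidence intervals from the limma model, in wildtype (4 against 4 arrays) and Has3-deficient arteries (3 against 4); filled points passed at an adjusted p under 0.05. P4ha3, at 3.34 and 2.93, lies apart from the others, which lie between -0.15 and 1.09.

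Marker genes of several cell types moved with ligation too. Of 8 macrophage markers (such as Adgre1 and Csf1r) all 8 passed as higher in both genotypes; their mean lay between -1.30 and -0.18 in non-ligated arrays and between 2.06 and 2.39 in ligated arrays. All 8 neutrophil markers did the same, with means from -1.13 to -0.20 and from 1.80 to 2.85. All 7 measured markers of dividing cells passed as higher in both genotypes. Of 8 contractile smooth muscle markers (such as Myh11 and Cnn1), 7 passed as lower in wildtype and 8 in Has3-deficient arteries; their mean lay between -0.04 and 0.49 without ligation and between -0.90 and -0.37 with it. Of 7 measured adventitial fibroblast markers, 1 passed as higher and 4 as lower in wildtype arteries, and 2 and 2 in Has3-deficient arteries. Without ligation their mean lay between 0.11 and 0.31 in wildtype arrays and between -0.14 and -0.10 in Has3-deficient arrays. Between these genotypes 0 of the 7 passed. The part of these cell types in the rise of the enzymes or in the genotype comparisons was not tested.

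No enzyme differed between genotypes beyond the threshold. In ligated arteries 0 of 9 passed in limma, as did 0% of all genes; at an unadjusted p under 0.05 there were 0 of 9 and 910 genes, or 4.10%. The estimates ran from -0.07 for Loxl4 (95% interval -0.23 to 0.09) to 0.17 for P4ha3 (-0.39 to 0.72). For Lox the difference was 0.01 (-0.30 to 0.32), for P4ha1 -0.04 (-0.32 to 0.25), for Plod1 0.01 (-0.23 to 0.25) and for Plod2 -0.05 (-0.47 to 0.37). These intervals reach differences of up to 1.65-fold for P4ha3 and 1.25-fold for Lox, so equal levels are not shown. Only Loxl1 had arrays that did not overlap, at 0.04, 0.06 and 0.12 in Has3-deficient ligated arrays 3, 5 and 6 against -0.04, -0.05, -0.08 and -0.09 in wildtype ligated arrays 1 to 4; the difference was 0.14 (-0.08 to 0.35), and 3.55% of all genes were higher without overlap.

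Without ligation, too, 0 of 9 passed in limma, against 0.0857% of all genes. At an unadjusted p under 0.05, P4ha3 was the 1 enzyme, beside 2979 genes or 13.4%. Its Has3-deficient mean was -0.79 ± 0.56 (SD, n = 4) and its wildtype mean -1.37 ± 0.24 (SD, n = 4), a difference of 0.57 ± 0.24 or 1.49-fold (limma adjusted p = 0.325). The arrays overlapped. The difference fell to 0.31 without Has3-deficient non-ligated array 3, the array highest in neuronal markers, and was 0.41 without the highest neuronal array of each genotype. It was 0.64, 0.74 and 0.60 without Has3-deficient non-ligated array 1, 2 or 4. The other 8 differences lay between -0.11 for Lox (-0.39 to 0.17) and 0.12 for P4ha2 (-0.15 to 0.40).

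Nor did the ligation responses of the genotypes differ beyond the threshold. The interaction passed in limma for 0 of 9 enzymes and 0% of all genes, and at an unadjusted p under 0.05 for 0 of 9 and 1802 genes (8.12%). The lowest adjusted p was 0.792, for P4ha3, whose rise was smaller in Has3-deficient arteries by an estimate of -0.41 (95% interval -1.17 to 0.35). It was -0.14 without Has3-deficient non-ligated array 3 and ranged down to -0.59 as other arrays were left out. For Lox the estimate was 0.12 (-0.30 to 0.54), for P4ha2 -0.17 (-0.57 to 0.23) and for Loxl3 0.04 (-0.43 to 0.52). Thus Loxl3 and P4ha2, which passed in wildtype arteries alone, were not shown to respond differently in the genotypes.

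**Figure D3:**
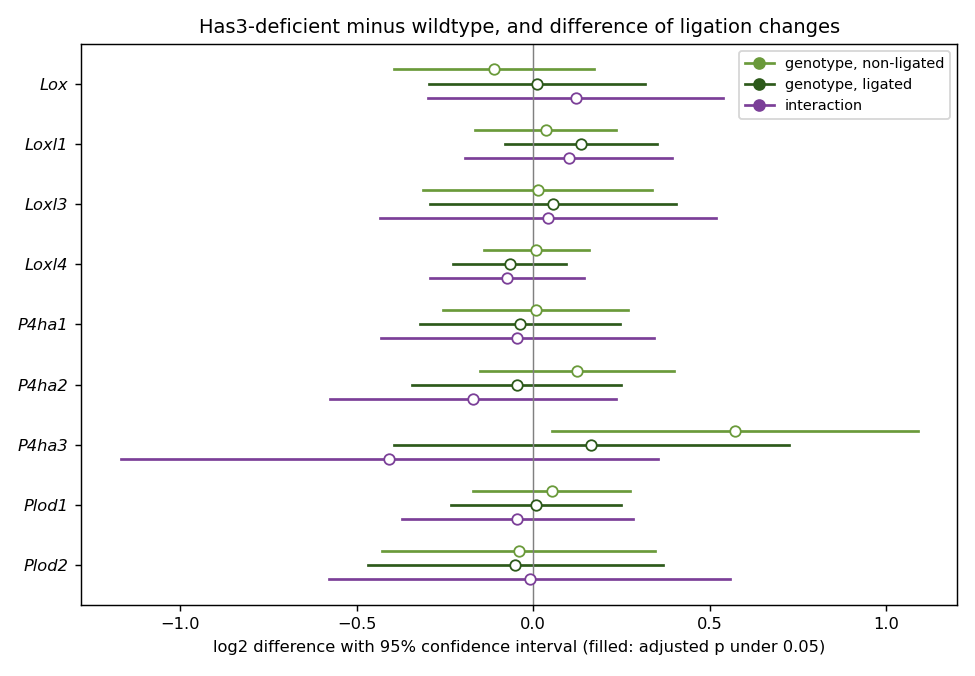
Log2 difference between Has3-deficient and wildtype arteries for the 9 measured enzymes with 95% confidence intervals from the limma model, with ligation (3 against 4 arrays) and without (4 against 4), and for the interaction, the Has3-deficient minus the wildtype ligation change. None passed at an adjusted p under 0.05, and the interval of P4ha3 without ligation, 0.05 to 1.09, is the only one that does not include 0.

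The collagen chains on which these enzymes act rose alongside them. All 11 measured fibrillar collagen genes passed as higher in wildtype arteries, with a median of 0.94, and 8 of 11 in Has3-deficient arteries, with a median of 0.83. Col1a1 and Col3a1, the main collagens of the arterial wall, rose by 1.55 ± 0.10 and 1.40 ± 0.13 in wildtype arteries, and Col5a3 and Col5a2, chains of the type V collagen that regulates fibril diameter, by 1.60 ± 0.12 and 1.10 ± 0.10. In the interaction 0 of these 11 passed in limma and 2 had an unadjusted p under 0.05; all 11 estimates were below 0, with a median of -0.27. Over all genes 8.12% had an unadjusted p under 0.05, 10157 of 22180 estimates were above 0 and the median was -0.02.

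Other genes that fold, modify and process procollagen moved in both directions. Of 21 measured, 10 passed as higher and 2 as lower in wildtype arteries, with a median of 0.07, and 8 and 2 in Has3-deficient arteries, with a median of 0.17. P4hb, the partner of the alpha subunits, rose by 0.46 ± 0.08 in wildtype arteries. Adamts3, which removes the amino-terminal propeptide, rose by 1.08 ± 0.19, and Bmp1, which removes the carboxy-terminal propeptide and also activates Lox, by 0.86 ± 0.12. Pcolce2, an enhancer of that cleavage, fell by 1.41 ± 0.16, and P3h2, a prolyl 3-hydroxylase, by 0.81 ± 0.14. Without Has3-deficient non-ligated array 3, 4 rather than 2 of the list passed as lower in wildtype arteries. In Has3-deficient arteries 1 rather than 2 passed as lower without ligated array 3 or 5 or non-ligated array 1 or 4.

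Elastic fibre genes, the other substrates and scaffolds of lysyl oxidases, were also mixed. Of 14 measured, 3 passed as higher and 5 as lower in wildtype arteries (median -0.20), and 5 and 3 in Has3-deficient arteries (median -0.14; 3 higher without non-ligated array 3 or ligated array 6). Fbn2, a microfibril protein prominent in development, rose by 1.56 ± 0.14 in wildtype arteries and the latent TGF-beta binding protein Ltbp2 by 0.94 ± 0.20. Ltbp4 fell by 1.19 ± 0.20, and Fbln5, which guides elastin onto microfibrils, fell by 0.92 ± 0.14. Eln, the elastin gene itself, differed by -0.21 ± 0.22 (limma adjusted p = 0.563).

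Genes known to respond to hypoxia or to TGF-beta, both inducers of several of these enzymes in other settings, were counted as well. Of 14 measured hypoxia-inducible genes, 6 passed as higher and 1 as lower in wildtype arteries (median 0.28), and 5 and 0 in Has3-deficient arteries (median 0.36). Over all genes 13.2% passed as higher and 14.6% as lower in wildtype arteries, and 10.2% and 8.08% in Has3-deficient arteries. In wildtype arteries the prolyl hydroxylase Egln3, which marks the hypoxia factor for destruction, rose by 1.69 ± 0.26, the growth factor Vegfa by 1.29 ± 0.29 and the glycolytic genes Pgk1 and Pfkfb4 by 1.29 ± 0.35 and 0.97 ± 0.10. Adm, which encodes the vasodilator peptide adrenomedullin, fell by 0.85 ± 0.21. In Has3-deficient arteries Egln3, Vegfa and Pfkfb4 passed too (1.62, 1.03 and 0.85). Pgk1 did not (0.94, limma adjusted p = 0.109), nor did Adm (-0.46, limma adjusted p = 0.191). With an array left out, the limma adjusted p of Vegfa in Has3-deficient arteries reached 0.111. Of 14 measured TGF-beta ligands, receptors and targets, 2 passed as higher and 2 as lower in each genotype (medians -0.14 and 0.04). In wildtype arteries these shares are near those of all genes, 13.2% higher and 14.6% lower, and show nothing particular to the list. The lower count in Has3-deficient arteries was 0 without Has3-deficient ligated array 5 or 6 or non-ligated array 1 or 2, and 1 without Has3-deficient ligated array 3, wildtype ligated array 4 or wildtype non-ligated array 3 or 4. The ligand Tgfb1 rose by 1.25 ± 0.14 and the matrix protein Tgfbi by 0.95 ± 0.08 in wildtype arteries, while Tgfb3 fell by 0.90 ± 0.13 and the co-receptor Tgfbr3 by 0.56 ± 0.11. Between genotypes, with or without ligation, no gene of these 5 lists passed in limma; unadjusted p-values under 0.05 were reached by 0 to 3 genes of a list.

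**Figure D4:**
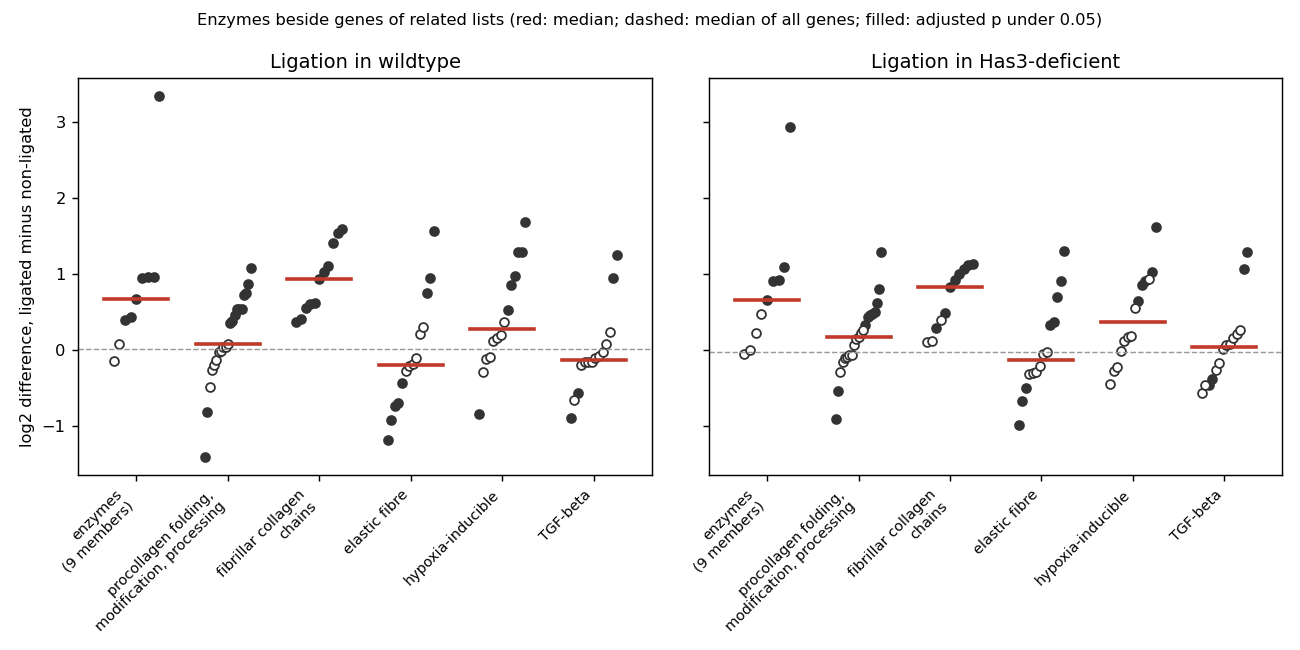
Log2 difference between ligated and non-ligated arteries for every measured gene of the enzymes and of the 5 lists of related genes, by genotype; points are genes, filled where the adjusted p was under 0.05, and bars are list medians. The fibrillar collagens have the highest median of the lists, 0.94 in wildtype and 0.83 in Has3-deficient arteries, and the elastic fibre genes the lowest, -0.20 and -0.14.

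The genes nearest to P4ha3 in their pattern were found by the root mean square difference of the log2 values over the 15 arrays. Values were first centred on each gene's mean, so 0 would be an identical pattern. The other enzymes were left out, as were genes with microRNA, small nucleolar RNA or provisional names such as Gm and Rik. The nearest of the rest were Cxcr4, a chemokine receptor (0.372), Slamf7, a receptor of immune cells (0.396), and Neurl3 (0.398). In wildtype arteries Cxcr4 rose by 3.58 ± 0.37, Slamf7 by 3.07 ± 0.15 and Neurl3 by 2.77 ± 0.16. In Has3-deficient arteries the rises were 2.84 ± 0.40, 2.91 ± 0.17 and 2.70 ± 0.17. The arrays share the ligation contrast, so this likeness is only a description.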

How the data were processed

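Total RNA of 15 carotid artery samples was labelled with the Affymetrix WT Plus kit, per the labels' protocols. The authors deposited log2 values for 33793 probe sets; tests on the table showed that every probe set has a median of 0 over the 15 arrays. The base of the log was taken as 2, and how arrays were scaled, with what software and on which build, is not given in the sources used here. Symbols came from the platform annotation: 23521 probe sets had 1 symbol, 1814 several and 8458 were unlisted. Probe sets of 1082 genes with several were averaged, giving 22180 genes. Groups came from the sample titles.

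The 4 group means were fitted in limma 3.58.1 (R 4.3.3), whose moderated variances had 11 residual degrees of freedom and a prior worth 2.69, and the script was tested on simulated data. A planned filter on mean level was not possible with centred values, so the 3571 genes whose stored steps place them in the highest range were used as an alternative. Other alternatives were scaling, array weights, a robust prior, the groups in the fit, the choice of probe set, a replicate block and leaving out each array. The members and lists were chosen with earlier results of these data known. All enzymes were named, as were P4hb, Eln and Adm from the lists after their values were seen, up to 4 passing genes per list by size in wildtype arteries, and the 3 genes nearest to P4ha3. The main fit did not pair samples by replicate number, and whether the numbers pair them is not known.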

Additional observations from a re-analysis of the deposited data

How the results depend on the processing

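Of 24 alternatives, 15 left out an array each. Lox, P4ha1, P4ha3 and Plod1 in both genotypes and Plod2 in wildtype arteries kept their direction and their call wherever they were tested (P4ha3, P4ha2 and Loxl4 were not among the genes of the highest stored range). With an array left out, 5 to 7 enzymes passed as higher in wildtype arteries and 4 to 6 in Has3-deficient arteries. The count between genotypes and for the interaction was 0 under every alternative. Loxl3 in Has3-deficient arteries also passed among the genes of the highest stored range (limma adjusted p = 0.0299). Of 1065 values of the measured enzymes under the alternatives, 26 lost the call, 4 gained it, 71 that were not called changed sign and 0 reversed a called direction. The shared probe sets were not in these counts. Scaling moved the median of all genes by at most 0.03.

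Same-numbered wildtype arrays correlated at 0.03 to 0.16 in their deviations from group means, 2 of 4 pairs above 0.1. Of the 4 wildtype ligated arrays, 2 correlated best with the non-ligated array of their own number. The Has3-deficient groups shared 1 number, and that pair correlated at -0.06. Pairs of different numbers correlated at -0.21 to 0.12 in wildtype and at -0.18 to 0.175 in Has3-deficient arteries. With so few pairs, these values cannot decide whether the numbers pair the samples, and the main fit did not pair them. The replicate block gave all arrays of the same number 1 shared term, also across genotypes. Has3-deficient ligated arrays 5 and 6 shared their numbers with no other array. With the block, the estimates of that group thus rested on array 3 alone. In wildtype arteries 5 enzymes passed as higher with the block. Loxl3 and P4ha2 lost their wildtype calls with the block (limma adjusted p = 0.101 and 0.103). The Plod2 difference in Has3-deficient arteries was 0.77 with it. Since the block left 1 array for Has3-deficient ligated arteries, counts of passing genes with it are not given there. The P4ha3 interaction was -0.77 with the block, and its genotype difference with ligation was -0.20. Without the block, the lower count was 1056 with only the groups compared and 996 without Has3-deficient ligated array 3. The number of genes passing between genotypes without ligation, 2 higher and 17 lower, varied from 0 to 57 and from 0 to 223. The cause was not tested. Restricting the table to the highest stored range, with fewer genes by construction, left 657 higher and 1152 lower in wildtype arteries. Without the arrays of each genotype highest in neuronal genes, chosen after seeing the data, P4ha2 in wildtype arteries (0.33, limma adjusted p = 0.0881) and Plod2 in Has3-deficient arteries (0.52, adjusted p = 0.0621) lost their calls.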
